A study of Taeniopygia guttata with 39 samples.

Results

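The comparison set 6 birds that had carried testosterone for 7 d and were labelled singing against 6 birds that had carried it for 3 d and were labelled non-singing. It was made over all 26061 transcripts of the deposited table, and its 12 birds were chosen by their labelled duration and song behaviour alone, out of 39 birds in all. All 39 were adult, non-breeding females kept at 9 h of light and 15 h of dark, and their HVC, a forebrain song nucleus, was dissected from brain sections. Each array held the RNA of 1 bird. A Silastic tube of 7 mm under the skin released testosterone for 1 h (6 birds), 3 h (5 birds), 8 h (5 birds), 3 d (6 birds), 7 d (6 birds) or 14 d (6 birds), and 5 control birds had a tube without it. Only the 7-day and 14-day birds were labelled singing, so duration of treatment and song behaviour cannot be told apart. The study's design text calls the birds canaries and the organism field names the zebra finch, and the gene names used here are those of the zebra finch.

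HVC drives learned song, sends projections to the motor nucleus RA and to the basal ganglia nucleus Area X, and is rich in steroid-sensitive neurons. In the brain, testosterone is converted by aromatase to estradiol, which acts through estrogen receptors, while 5-alpha-reductase makes dihydrotestosterone. Female canaries sing little on their own, and testosterone implants are a classical way to make them sing and to enlarge their HVC.

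Values are log2 of array intensity as the authors deposited them, and ran between 0.77 and 14.09. For each transcript the change is the mean of the 7-day birds minus the mean of the 3-day birds, with its standard error (SE). A transcript is named as called when the adjusted p of limma's moderated test, fitted to all 39 arrays and adjusted by the Benjamini-Hochberg method over all transcripts, was under 0.05. No label says whether birds shared a clutch or an aviary, so p-values measure the spread between these birds. That spread was pooled over all groups of the 39 arrays, not taken from the 7-day and 3-day birds alone. In dissected tissue, fewer cells of a type and less RNA per cell cannot be told apart.

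Of 26061 transcripts, 4227 were called, 16.2% of those tested. In the 7-day birds 2831 transcripts were higher (10.9%) and 1396 lower (5.36%). Most changes were small: the median size among the called transcripts was 0.45, and 112 of them changed by more than 1 on the log2 scale, 49 higher and 63 lower. The 7-day and 3-day birds did not overlap at all for 1816 transcripts (6.97%), 1042 of them higher at 7 d and the others lower. Of the 2236 genes that could be named, 362 were called, 301 higher and 61 lower, 16.2% in all. Below, a listed gene counts as measured only if an identifier could be matched to its name. Of the 26061 identifiers, 23590 matched no gene, so other listed genes may be on the arrays unnamed. List counts thus cover only members that could be named. One 7-day bird carried much of the count, since without replicate 6 of that group 1981 transcripts were called. Counts were 2576 without 3-day replicate 4 and 2757 without 7-day replicate 2.

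The arrays of the 7-day birds had higher medians on average, with overlapping ranges. Their medians lay between 7.57 and 7.87, with a mean of 7.69 ± 0.11 (SD, n = 6), against 7.52 to 7.68 and a mean of 7.57 ± 0.06 in the 3-day birds (SD, n = 6). The difference of 0.12 had p = 0.0455 in a two-sided exact permutation test over the 924 ways to divide the 12 arrays. Among the brightest 1 in 5 transcripts, array medians differed by 0.02, with p = 0.253 by the same exact test. The median change was 0.06 in the dimmest 1 in 5 transcripts, 0.17 in the middle 1 in 5 and 0.04 in the brightest. Centring each array on its median lowered every change by that shift of 0.12, which was more than the median change of the brightest transcripts. The calls then numbered 3812 of 26061, 1484 higher and 2328 lower. Each list count given below after centring stands against these counts. Whether more transcripts rose or fell thus turned with the centring, and the genes picked by size were required to be called in both forms.

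The numbers in the bird titles moved with the groups as well. Every 7-day bird had a higher title number than every 3-day bird, and the 2 ranges lay far apart. A like gap separated birds that were all labelled non-singing, since the 1-hour and 3-hour birds were numbered close to the 7-day birds and the 8-hour birds among or below the 3-day birds. The mean of the 1-hour and 3-hour birds was therefore set against the 8-hour birds, and 8926 transcripts (34.3%) were called there. Across the 26061 transcripts both differences had a Pearson correlation of 0.65, given as a description, since the transcripts share arrays, while the 2 comparisons share no bird. Of the 4227 transcripts called for 7 d against 3 d, 3973 (94.0%) had the same sign in the short-duration comparison, against 77.2% of all transcripts. Signs were taken without centring, and the median change over all transcripts was positive in both comparisons, 0.10 and 0.15. The part of that shared shift in the shares of equal sign was not tested. In both comparisons 2710 transcripts were called in the same direction, 64.1% of the calls for 7 d against 3 d and 30.4% of the calls for the short durations. No source used here says what the numbers stand for, and number range and duration cannot be told apart in either comparison.

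Titles also carried a letter, L for 1 and R for 5 of the 7-day birds, against L for 3, R for 1 and none for 2 of the 3-day birds. Only 3-day and 8-hour birds lacked a letter, 2 of 6 and 4 of 5, so the letter also followed the number ranges. With the letter as a term in the fit, 966 transcripts were called for 7 d against 3 d and 1.59% of all transcripts for the short durations. Of 74 named results that were called (70 genes and 4 unnamed transcripts), 36 kept their call in that fit, and its part in the others was not tested further. Dim levels were a second limit: CCND1, CHRNA9, HAS2, KCNG2, KCNS1, NPY5R, SLITRK6 and SMU1 lay below the 25th percentile of all transcript means, 6.25, in both groups.

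The interaction of the 2 comparisons was the 7-day difference minus the short-duration difference. Duration of treatment differed within both, so the interaction can come from either and does not set apart a change at 7 d. It was called for 59 transcripts (0.226%), and 2538 had an unadjusted p under 0.05. Its standard error was larger, with a median of 0.19 against 0.14 for the 7-day difference. Among the 4227 calls for 7 d against 3 d, 29 were also called for the interaction. Of the 59, 4 carried a gene name: ESR1, IGF2, CDH12 and EFNB2.

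**Figure D1:**
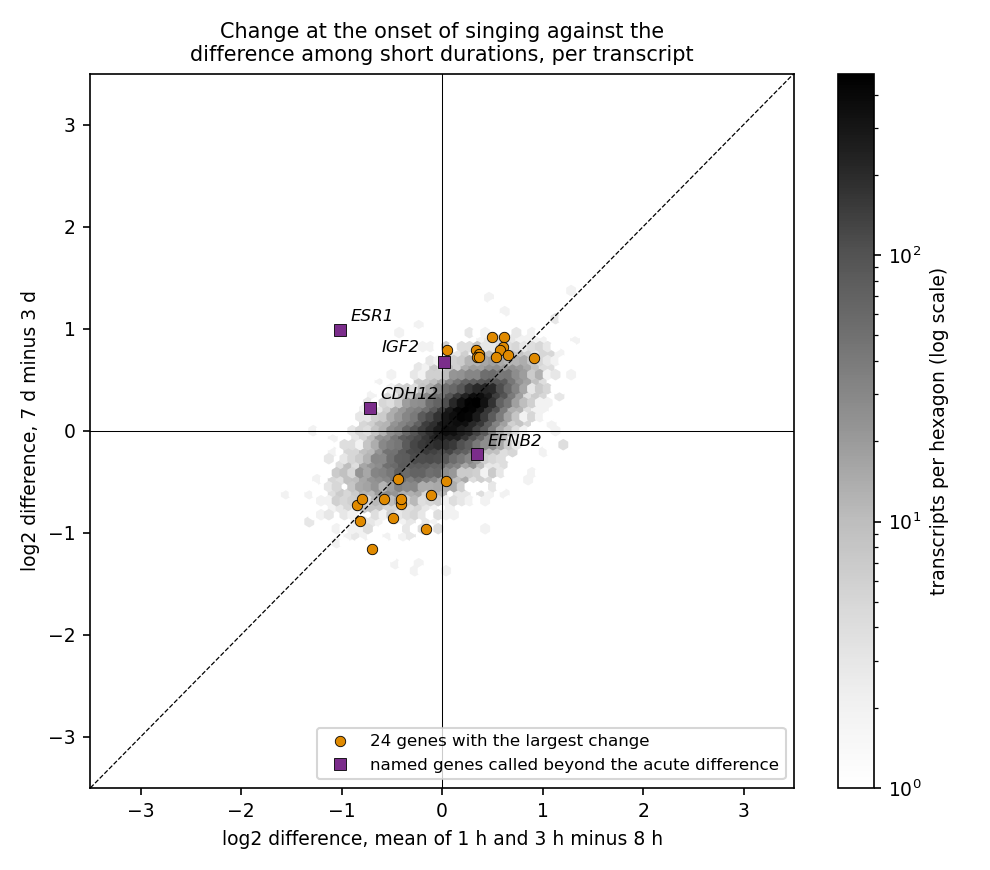
Each hexagon counts transcripts by the log2 difference between the mean of the 1-hour and 3-hour birds and the 8-hour birds (horizontal) and by the log2 difference of the 7-day birds minus the 3-day birds (vertical), with the dashed line marking equal values. The cloud runs along the diagonal (correlation 0.65 over 26061 transcripts). The 24 marked genes had the largest change among named genes that passed the conditions on overlap, level and centring. Of them 23 have the same sign on both axes, as have 94.0% of all called transcripts. ESR1 lies apart at 0.99 on the vertical and -1.01 on the horizontal axis.

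Steroid receptors and converting enzymes are the direct route of the treatment. Of 2 steroid receptor genes described here, 1 was called higher at 7 d and none lower, where 16.2% of all transcripts were called. Their median change was 0.49, against 0.10 over all transcripts. ESR1, the gene for estrogen receptor alpha, was the called gene. Its lowest, median and highest values were 6.98, 7.66 and 7.98 in the 7-day birds, against 5.30, 6.56 and 7.24 in the 3-day birds. The 2 groups overlapped, yet every 7-day bird was above the 3-day mean. ESR1 was higher by 0.99 (SE 0.23), a 1.99-fold difference, with an adjusted p of 0.0049 by limma. With a term for the letter in the bird titles, its change was 0.83 and its adjusted p 0.0669.

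The course of ESR1 over the series was not monotonic. Group means were 7.47 in controls, 7.12 at 1 h, 6.88 at 3 h, 8.01 at 8 h, 6.54 at 3 d, 7.53 at 7 d and 6.94 at 14 d. The 8-hour birds were thus the highest and the 3-day birds the lowest, and the 7-day and control means differed by less than the SD of either group, 0.44 and 0.32. The short-duration comparison had the opposite sign, -1.01, and the interaction was 2.00 (SE 0.32, adjusted p = 0.0034 by limma). That interaction was called under every processing alternative fitted and without each array in turn.

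NR3C1, the glucocorticoid receptor gene and the other receptor described, had a change of -0.01 and was not called (adjusted p = 0.95 by limma).

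Of 4 measured genes of steroid synthesis and conversion, 2 were called higher and none lower, where 16.2% of all transcripts were called. The list's median change was 0.31, against 0.10 over all transcripts. SRD5A2, a 5-alpha-reductase, had 6.76, 7.01 and 7.36 in the 7-day birds, against 6.35, 6.43 and 6.83 in the 3-day birds. All but 1 of the 3-day birds lay below every 7-day bird. It was higher by 0.56 (SE 0.14, adjusted p = 0.00837 by limma), and its adjusted p was 0.0539 with the title letter in the fit. SRD5A2 also lost its call with the array median as a covariate. CYP19A1, the aromatase gene, had 7.75, 7.94 and 8.09 in the 7-day birds, against 7.36, 7.62 and 7.78 in the 3-day birds. It was higher by 0.32 (SE 0.11, adjusted p = 0.0449 by limma), and centring ended the call (change 0.20, adjusted p = 0.127). Leaving out any of 8 of the 12 arrays ended it too, with an adjusted p of up to 0.121. HSD3B1 and HSD17B2 had changes of 0.30 and 0.08 and were not called.

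**Figure D2:**
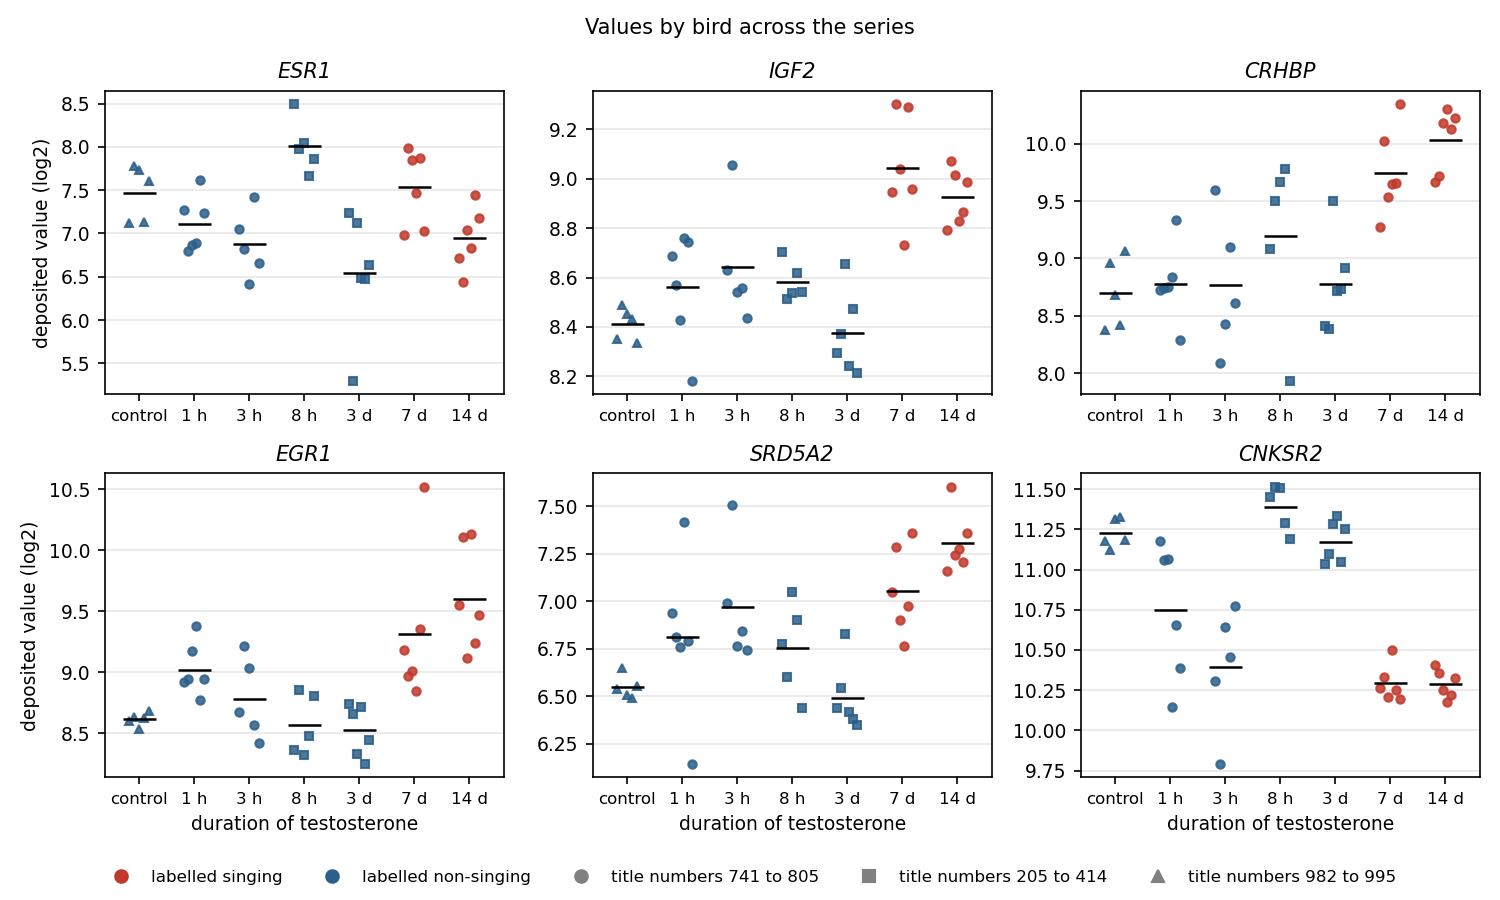
Each point is 1 bird's deposited log2 value (vertical) by duration of testosterone (horizontal), with black bars for group means, red for birds labelled singing, blue for non-singing birds, and the marker shape giving the range of title numbers. ESR1 was lowest at 3 d (mean 6.54), IGF2, EGR1, CRHBP and SRD5A2 had higher means at 7 d and 14 d than at 3 d, and CNKSR2 was lower at 7 d (10.29) than at 3 d (11.17) and also low at 3 h (10.40).

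Immediate early genes are switched on within minutes of neuronal firing, and in zebra finches EGR1, known there as ZENK, rises in song nuclei when a bird sings. Of 5 measured genes of that list, 1 was called higher and 1 lower, where 16.2% of all transcripts were called. The list's median change was 0.36. EGR1 had 8.85, 9.09 and 10.52 in the 7-day birds, against 8.25, 8.55 and 8.74 in the 3-day birds. Every 7-day bird was above every 3-day bird, and replicate 6 stood far above the other 7-day birds. EGR1 was higher by 0.79 (SE 0.20, adjusted p = 0.00684 by limma), 1.73-fold, and by 0.55 (adjusted p = 0.0297) without that bird. With the array median as a covariate its adjusted p was 0.06. In the series its mean was 8.62 in controls, 9.02 at 1 h, 8.78 at 3 h, 8.56 at 8 h, 8.52 at 3 d, 9.31 at 7 d and 9.60 at 14 d, and the interaction with the short-duration comparison was 0.45 (adjusted p = 0.633 by limma).

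FOS, whose product pairs with that of JUN in the transcription factor AP-1, had 6.62, 7.09 and 8.98 in the 7-day birds, against 5.98, 6.44 and 6.66 in the 3-day birds. The groups overlapped at their edges. Its change of 0.98 (SE 0.39) missed the threshold with an adjusted p of 0.0769 by limma. JUN had 7.57, 7.66 and 8.01 in the 7-day birds, against 7.73, 8.06 and 8.52 in the 3-day birds, and was lower by a change of -0.38 (SE 0.13, adjusted p = 0.0471 by limma). That call was lost without any of 9 of the 12 arrays, with an adjusted p of up to 0.136. HOMER1 and DUSP6 were not called.

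Of 17 measured genes of neurotrophin, growth factor and insulin-like growth factor signalling, 3 were called higher (IGF2, FGF20 and GDNF) and none lower, 17.6% of the list against 16.2% of all transcripts, and the list's median change was 0.04. After centring 1 was called higher, IGF2, and 1 lower. IGF2, a growth factor related to insulin, had 8.73, 9.00 and 9.30 in the 7-day birds, against 8.21, 8.33 and 8.65 in the 3-day birds. All 7-day birds were above all 3-day birds. IGF2 was higher by 0.67 (SE 0.11), 1.59-fold, with an adjusted p of 0.000142 by limma.

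Before the singing groups, IGF2 had a control mean of 8.41 and means of 8.56 at 1 h, 8.64 at 3 h, 8.58 at 8 h and 8.37 at 3 d. It then averaged 9.04 ± 0.22 at 7 d (SD, n = 6) and 8.93 ± 0.11 at 14 d (SD, n = 6). The short-duration difference was 0.02, and the interaction was 0.65 (SE 0.15, adjusted p = 0.0379 by limma). That interaction lost its call in a fit to the 5 groups compared (adjusted p = 0.144), with the title letter as a term (0.0815) and with a replicate block (0.0556), as well as without many of the single arrays. FGF20 and GDNF, both trophic factors of midbrain dopamine neurons in mammals, were higher by 0.36 and 0.32, with adjusted p of 0.0387 and 0.0408 by limma. Neither was called after centring, and both calls were lost without several single arrays, with adjusted p of up to 0.148 for FGF20 and 0.155 for GDNF. IGF1R, a receptor of insulin-like growth factors, had a change of -0.42 (SE 0.27, adjusted p = 0.274 by limma) and was not called.

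Of 16 measured genes of neuropeptide signalling, 3 were called higher and 1 lower, where 16.2% of all transcripts were called, with a median change of 0.08. CRHBP, a secreted protein that binds corticotropin-releasing hormone, had 9.28, 9.65 and 10.34 in the 7-day birds, against 8.38, 8.72 and 9.50 in the 3-day birds. A single 3-day bird reached into the range of the 7-day birds. CRHBP was higher by 0.97 (SE 0.25), 1.96-fold, with an adjusted p of 0.00821 by limma. Its mean was 10.04 at 14 d and lay between 8.70 and 9.19 in the control, 1-hour, 3-hour, 8-hour and 3-day groups. The 8-hour birds were spread widely, with lowest, median and highest values of 7.93, 9.50 and 9.78. Their median thus lay within the range of the 7-day birds, though they were labelled non-singing. The interaction was 1.39 with an adjusted p of 0.0602 by limma.

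TACR2, a receptor for neurokinin A, had 7.50, 7.70 and 7.89 in the 7-day birds, against 6.63, 6.88 and 7.23 in the 3-day birds. GALR1, a receptor for galanin, had 10.13, 10.28 and 10.88 in the 7-day birds, against 9.64, 9.75 and 9.78 in the 3-day birds. For both genes the groups did not overlap. TACR2 was higher by 0.79 (SE 0.17, adjusted p = 0.0025 by limma) and GALR1 by 0.62 (SE 0.14, adjusted p = 0.00361 by limma), and GALR1 was not called with the title letter in the fit. NPY5R, a neuropeptide Y receptor, was lower by a change of -0.57 (adjusted p = 0.0166 by limma), at means of 4.18 in the 7-day birds and 4.75 in the 3-day birds.

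Of 6 measured genes of glutamate receptors and transporters, 2 were called lower (GRM5 and GRIN2B) and none higher, with a median change of -0.25, against 5.36% called lower and 16.2% called in all among all transcripts. GRM5, the metabotropic glutamate receptor mGluR5, had 6.79, 7.06 and 7.41 in the 7-day birds, against 7.41, 7.74 and 7.86 in the 3-day birds. The highest 7-day bird and the lowest 3-day bird met at the same rounded value without crossing. GRM5 was lower by a change of -0.63 (SE 0.13, adjusted p = 0.00159 by limma), and the short-duration difference was -0.11. GRIN2B, a subunit of the NMDA receptor, had 10.54, 10.77 and 11.00 in the 7-day birds, against 10.99, 11.35 and 11.74 in the 3-day birds. It was lower by a change of -0.56 (SE 0.13, adjusted p = 0.00488 by limma), and in the short-duration comparison by a change of -0.75. After centring, 4 of the 6 were called lower, GRIA2 and GRID1 being added, where 2328 of 26061 transcripts were called lower.

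No gene of inhibitory transmission was called among 5 measured (median change -0.08). After centring 2 were called lower, where 2328 of 26061 transcripts were. GABRD, a subunit of extrasynaptic GABA-A receptors, had a change of -0.48 with an adjusted p of 0.065 by limma. GLRA2, a glycine receptor subunit, was read by 2 identifiers, of which the brighter changed by -0.35 (adjusted p = 0.0854) and the dimmer by -0.64 (adjusted p = 0.0247). Of 12 measured receptors for monoamines and acetylcholine, 1 was called higher and 1 lower, 16.7% against 16.2% of all transcripts. ADRA1B, an alpha-1 adrenergic receptor, was higher by 0.43 (adjusted p = 0.0368 by limma), and neither centring nor the loss of any of 8 arrays left it called. CHRNA9, a nicotinic receptor subunit, was lower by a change of -1.29 (adjusted p = 0.00831 by limma) at dim means of 3.37 in the 7-day birds and 4.66 in the 3-day birds.

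Of 15 measured potassium channel genes, 3 were called higher and none lower, 20.0% against 16.2% of all transcripts, with a median change of 0.20. KCNK12, a two-pore-domain channel, had 8.05, 8.29 and 8.55 in the 7-day birds, against 7.64, 7.80 and 7.88 in the 3-day birds. All 7-day birds were above all 3-day birds, and the difference was 0.50 (SE 0.11, adjusted p = 0.0024 by limma). The short-duration difference of KCNK12 was as large, 0.55. KCNS1 and KCNG2, both electrically silent subunits that modify Kv2 channels, were higher by 0.51 and 0.38, with adjusted p of 0.025 and 0.0387 by limma, at dim levels. KCNG2 was not called after centring or without any of 9 of the 12 arrays (adjusted p of up to 0.118). KCNS1 was not called without any of 4 arrays, 7-day replicate 6 among them (adjusted p of up to 0.111). Neither gene was called in the fit to the 2 groups, with the title letter or with the array median. None of 2 sodium, calcium and HCN channel genes and none of 6 genes of synaptic vesicles and release was called.

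**Figure D3:**
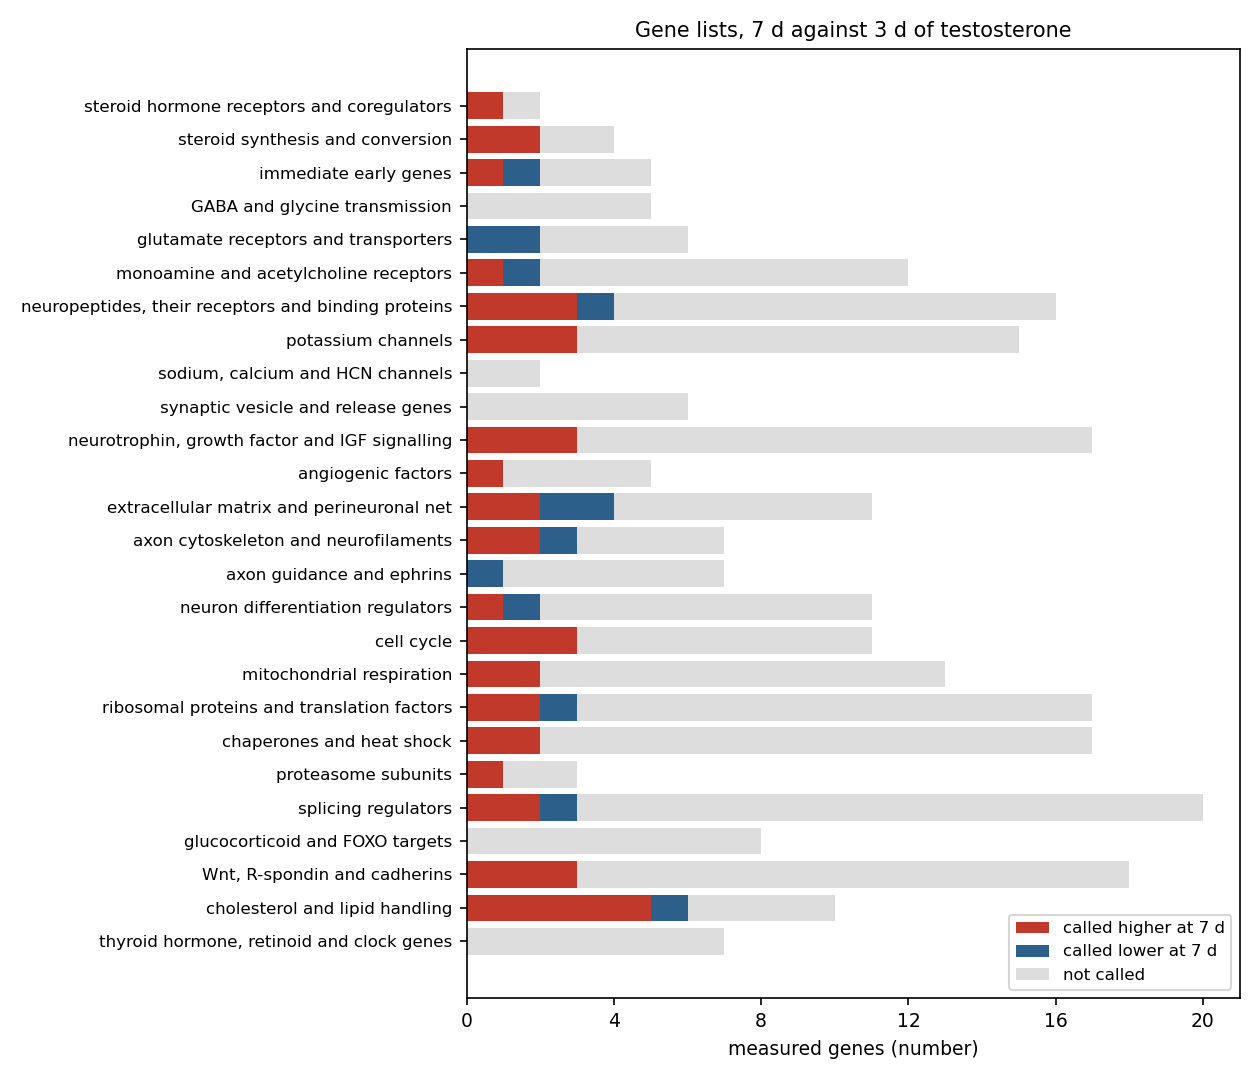
Bars give, for each of 26 gene lists, the number of measured genes called higher in the 7-day birds than in the 3-day birds (red), called lower (blue) or not called (grey) at an adjusted p under 0.05. Cholesterol and lipid handling had the most calls, 5 higher and 1 lower of 10, and 5 lists had none.

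Cholesterol and lipid handling had the largest number of calls of any list, 5 higher and 1 lower of 10 measured, 60.0% against 16.2% of all transcripts, with a median change of 0.23. FADS1, a fatty acid desaturase that makes polyunsaturated fatty acids, had 10.96, 11.05 and 11.28 in the 7-day birds, against 10.24, 10.38 and 10.72 in the 3-day birds. The groups did not overlap. FADS1 was higher by 0.67 (SE 0.11), 1.59-fold, with an adjusted p of 0.000244 by limma.

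SCD, which makes monounsaturated fatty acids, was higher by 0.59 (adjusted p = 0.0203 by limma) and ELOVL4, which lengthens very long fatty acids, by 0.44 (adjusted p = 0.00837). MSMO1 and FDFT1, enzymes of cholesterol synthesis, were higher by 0.34 and 0.31 (adjusted p = 0.0112 and 0.0155). For MSMO1 the lowest 7-day bird, 11.53, was above the highest 3-day bird, 11.37. ABCA1, which exports cholesterol from cells, was lower by a change of -0.55 (SE 0.16, adjusted p = 0.0181 by limma), and its adjusted p was 0.0523 without 7-day replicate 6. After centring 2 genes of the list were called higher, FADS1 and ELOVL4, and 1 lower. SCD also lost its call without 3-day replicate 4, 3-day replicate 6 or 7-day replicate 6, with an adjusted p of up to 0.0793. SCD, ELOVL4 and ABCA1 were no longer called once the title letter entered the fit, nor once array medians were adjusted for. FADS1 stayed called in each of those fits.

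Genes of the extracellular matrix were called in both directions, 2 higher and 2 lower of 11 measured, 36.4% against 16.2% of all transcripts. Their median change was 0.01, and after centring 1 was called higher and 2 lower. HAS2, which synthesises hyaluronan, the backbone of perineuronal nets, had 5.11, 6.00 and 7.16 in the 7-day birds, against 4.34, 4.88 and 6.07 in the 3-day birds. The groups overlapped and both were spread widely. HAS2 was higher by 1.13 (SE 0.29), 2.18-fold, with an adjusted p of 0.00821 by limma, and its adjusted p was 0.0742 with the title letter in the fit. ADAMTS20, a secreted metalloproteinase, had 5.98, 6.31 and 6.95 in the 7-day birds, against 6.81, 7.53 and 7.70 in the 3-day birds. It was lower by a change of -1.05 (SE 0.18, adjusted p = 0.000291 by limma), and the short-duration difference was -0.14. The membrane metalloproteinases MMP24 and MMP16 had changes of 0.25 and -0.42 (adjusted p = 0.0402 and 0.0329 by limma), each lost without any of 6 of the 12 arrays.

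Of 7 measured genes of the axon cytoskeleton, 2 were called higher and 1 lower, 42.9% against 16.2% of all transcripts. NEFM, a neurofilament subunit, had 11.36, 11.43 and 11.61 in the 7-day birds, against 9.75, 10.70 and 11.65 in the 3-day birds. The 7-day birds lay close together, while the 3-day birds spread over nearly 2 log2 units and included the highest of the 12. NEFM was higher by 0.74 (SE 0.22, adjusted p = 0.018 by limma), with adjusted p of 0.0636 after centring and 0.0505 without 3-day replicate 2. KIF5B, a heavy chain of the motor kinesin-1, was higher by 0.38 (adjusted p = 0.0121), and MAP7, which recruits kinesin-1 to microtubules, was lower by a change of -0.71 (adjusted p = 0.00555). KIF5B was not called after centring, with an adjusted p of 0.0738.

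Of 11 cell cycle genes, 3 were called higher and none lower, before and after centring, 27.3% against 16.2% of all transcripts, with a median change of 0.31. CDC45, a part of the helicase that opens DNA for replication, had 6.97, 7.17 and 7.47 in the 7-day birds, against 6.35, 6.40 and 6.73 in the 3-day birds. The groups did not overlap, and CDC45 was higher by 0.71 (SE 0.14, adjusted p = 0.00108 by limma). CCND1 and CCNA2, the cyclins D1 and A2, were higher by 0.54 (adjusted p = 0.00467) and 0.50 (adjusted p = 0.0123). CCNA2 had an adjusted p of 0.0551 without 7-day replicate 6. The other 8, among them MCM6, TK1 and BIRC5, were not called.

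Of 18 measured genes of Wnt signalling and cadherins, 3 were called higher and none lower, 16.7% against 16.2% of all transcripts, with a median change of 0.14. After centring 2 were called higher and 1 lower. WNT2, WNT7A and WNT5A, secreted ligands of that pathway, were higher by 0.61, 0.48 and 0.28, with adjusted p of 0.0322, 0.008 and 0.0361 by limma. WNT5A was not called after centring, and WNT2 and WNT5A each lost the call without any of 6 of the 12 arrays, with adjusted p of up to 0.127 and 0.113. WNT7A kept it without each array.

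CDH12, a cadherin, was not called for 7 d against 3 d (change 0.23, adjusted p = 0.262 by limma). It was called for the interaction, 0.94 with an adjusted p of 0.0234, since its short-duration difference was -0.71. EFNB2, an ephrin ligand of axon guidance, likewise had a change of -0.23 (adjusted p = 0.0881) and an interaction of -0.58 (adjusted p = 0.0437). For CDH12 and EFNB2 the interaction was lost in the fit to 5 groups, with adjusted p of 0.104 and 0.119. Both were also lost with the title letter as a term and without several single arrays, CDH12 after centring (adjusted p = 0.0553) and EFNB2 with a replicate block (0.0654). Of 7 axon guidance genes, 1 was called lower, 14.3% against 16.2% of all transcripts called. It was SLITRK6, with a change of -0.81 (adjusted p = 0.0151 by limma) at a dim 7-day mean of 3.25. Its adjusted p was 0.0591 without 3-day replicate 3.

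Among 11 regulators of neuron differentiation, LHX8, a homeobox gene of forebrain cholinergic neurons in mammals, was higher by 0.53 (adjusted p = 0.0422 by limma). SATB1, a chromatin organiser, was lower by a change of -0.46 (adjusted p = 0.0398). These were 18.2% of the list, against 16.2% of all transcripts. After centring none was called higher, LHX8 included, and 4 were called lower, where 2328 of 26061 transcripts were. Both calls were lost without several single arrays, with adjusted p of up to 0.156 and 0.0896. EDN1, the gene for the vasoconstrictor endothelin-1, was the only call among 5 angiogenic factors, higher by 0.45 (adjusted p = 0.0162), and its adjusted p was 0.0532 after centring and 0.0582 without 7-day replicate 6.

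Genes of general cell function were called at between 11.8% and 17.6% in the 4 larger lists, against 16.2% of all transcripts. Of 13 genes of mitochondrial respiration, 2 were higher (15.4%), PDHA1 of the pyruvate dehydrogenase complex by 0.83 (adjusted p = 0.0166 by limma) and ATP5F1A of the ATP synthase by 0.54 (adjusted p = 0.0288). Of 17 ribosomal and translation genes, 2 were higher and 1 lower (17.6%), RPL10A by 0.56, RPL7 by 0.55 and RPS20 with a change of -0.47. Of 17 chaperones, 2 were higher (11.8%), HSPB1 by 0.80 and HSPH1 by 0.40. Of 20 splicing regulators, 2 were higher and 1 lower (15.0%), SMU1 by 1.07 at dim levels, TRA2B by 0.41 and SRSF2 with a change of -0.57. Of 3 proteasome subunits, 1 was higher, PSMB2, by 0.35. Among these, PDHA1, ATP5F1A, RPL7, HSPB1, HSPH1, SRSF2 and PSMB2 lost their calls without at least 3 of the 12 arrays each, with adjusted p between 0.0607 and 0.0958 at the most. ATP5F1A, RPL7, HSPB1 and PSMB2 were also not called after centring. No gene was called of 8 glucocorticoid and FOXO targets or of 7 thyroid hormone, retinoid and clock genes.

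The genes with the largest change, up to 12 in each direction, were taken from the 74 named genes that were called before and after centring, whose groups did not overlap and whose brighter mean was at or above the 25th percentile. Of those 74, out of 2236 named genes, 55 were higher and 19 lower. Over all 26061 transcripts, 1125 met the same conditions, 558 higher and 567 lower, so the excess of rises was limited to the named genes. With the title letter as a term 17 of the 24 were still called. EMCN, LGALSL, MORC3, NME7, RPS20, SLC19A2 and UQCC6 were not. With the array median as a covariate 19 were called, and EGR1, EMCN, HPCAL1, LGALSL and SLC19A2 were not. Without each of the 12 arrays in turn 23 were called, the exception being LGALSL. In the short-duration comparison 23 of the 24 had the same sign, against 77.2% of all transcripts and 94.0% of those called for 7 d against 3 d. There 15 of the 24 were called, where 34.3% of all transcripts were. None of the 24 was called for the interaction, where 0.226% of all transcripts were.

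**Figure D4:**
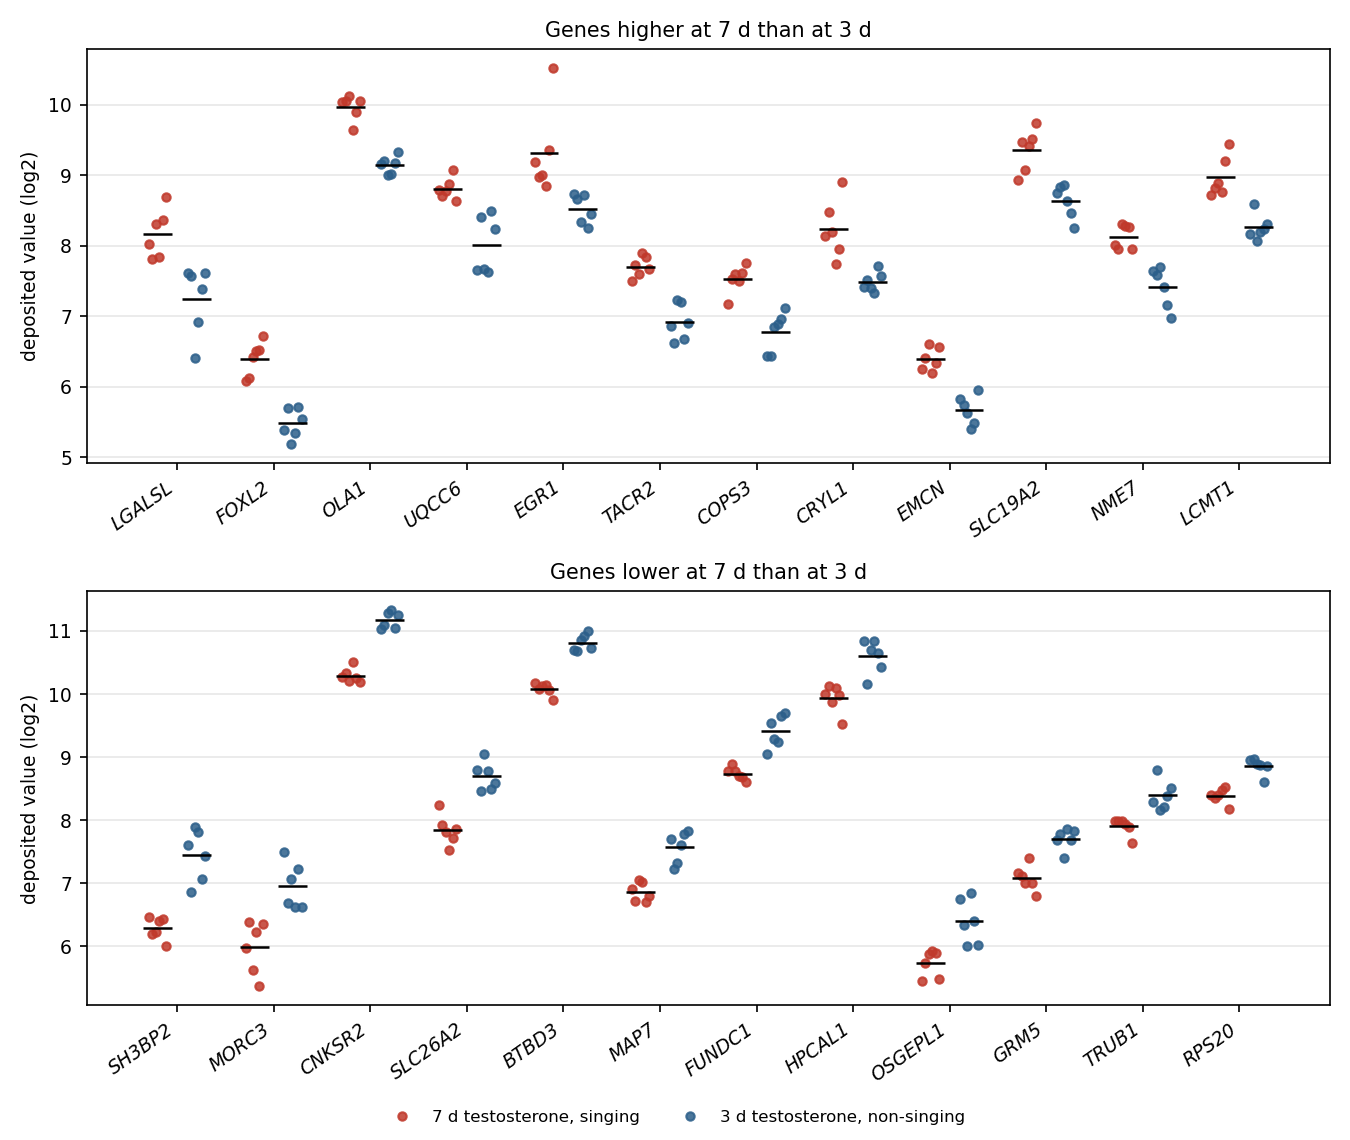
Points are the deposited log2 values (vertical) of single birds, with black bars for group means. In each pair 7-day birds are red on the left and 3-day birds blue on the right. The top shows the 12 genes with the largest rise and the bottom the 12 with the largest fall. Both come from named genes that passed the conditions on overlap, level and centring. No pair overlaps, as the choice of genes required, and the changes run from 0.71 to 0.92 above and from -0.47 to -1.16 below.

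SH3BP2, an adaptor protein of immune and bone cell signalling in mammals, had the largest fall. It had 6.00, 6.32 and 6.47 in the 7-day birds, against 6.87, 7.52 and 7.89 in the 3-day birds. The change was -1.16 (SE 0.19), 2.23-fold lower, with an adjusted p of 0.000241 by limma, and its 14-day mean was 6.86. MORC3, a nuclear ATPase, had 5.36, 6.10 and 6.39 in the 7-day birds, against 6.63, 6.88 and 7.50 in the 3-day birds, a change of -0.96 (SE 0.28, adjusted p = 0.0179).

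CNKSR2, a scaffold protein of the postsynaptic density, was the brightest of the 12 genes that fell. It had 10.20, 10.26 and 10.50 in the 7-day birds, against 11.03, 11.17 and 11.33 in the 3-day birds. Within each group the birds lay close together. The change was -0.88 (SE 0.14), 1.84-fold lower, with an adjusted p of 9.82e-05 by limma. The 14-day mean was 10.29 and the control mean 11.22, and CNKSR2 was also lower in the mean of the 1-hour and 3-hour birds than in the 8-hour birds, by a change of -0.82.

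BTBD3, which directs dendrites toward active inputs in the cortex of mice and ferrets, had 9.91, 10.10 and 10.17 in the 7-day birds, against 10.68, 10.80 and 11.00 in the 3-day birds. Its change was -0.73 (SE 0.15, adjusted p = 0.00122 by limma), beside a short-duration difference of -0.85. HPCAL1, a neuronal calcium sensor, had a change of -0.67 (adjusted p = 0.00968) beside -0.80. SLC26A2, a sulfate transporter needed to sulfate matrix proteoglycans, had 7.53, 7.84 and 8.23 in the 7-day birds, against 8.47, 8.69 and 9.04 in the 3-day birds, a change of -0.85 (SE 0.20, adjusted p = 0.00441).

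FUNDC1, a receptor for the removal of mitochondria, had a change of -0.67 (SE 0.11, adjusted p = 0.000201 by limma). OSGEPL1 and TRUB1, both enzymes that modify transfer RNA, had changes of -0.66 and -0.49 (adjusted p = 0.0026 and 0.0122). TRUB1 and GRM5 were the genes of the lower 12 with a short-duration difference closest to 0, 0.04 and -0.11. MAP7, GRM5 and RPS20 were the others of the 12.

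LGALSL and FOXL2 had the largest rises. LGALSL, a galectin-like protein, had 7.81, 8.16 and 8.69 in the 7-day birds, against 6.41, 7.47 and 7.61 in the 3-day birds, a change of 0.92 (SE 0.28, adjusted p = 0.0243 by limma). Without 7-day replicate 6 its adjusted p was 0.0793, without 3-day replicate 3 it was 0.0787 and without 3-day replicate 4 it was 0.06. FOXL2, a transcription factor known for its part in the ovary, had 6.09, 6.46 and 6.72 in the 7-day birds, against 5.18, 5.47 and 5.72 in the 3-day birds. Its change was 0.92 (SE 0.18), 1.89-fold, with an adjusted p of 0.00108 by limma, and its 14-day mean was 5.79.

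OLA1, an ATPase of the Obg family, had the smallest adjusted p of the 12 that rose. It had 9.63, 10.04 and 10.12 in the 7-day birds, against 9.00, 9.17 and 9.33 in the 3-day birds. The change was 0.82 (SE 0.13), 1.76-fold, with an adjusted p of 0.000135 by limma, and its short-duration difference was 0.61. CRYL1, an enzyme of sugar acid metabolism, had 7.74, 8.17 and 8.90 in the 7-day birds, against 7.32, 7.46 and 7.71 in the 3-day birds, a change of 0.74 (SE 0.15, adjusted p = 0.00139), and its 14-day mean was 8.56.

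UQCC6, an assembly factor of mitochondrial complex III, was higher by 0.79 (adjusted p = 0.0141 by limma) and COPS3, a subunit of the COP9 signalosome, by 0.75 (adjusted p = 0.00767). EMCN, a surface glycoprotein of endothelial cells, was higher by 0.72 (adjusted p = 0.0177), and SLC19A2, a thiamine transporter, by 0.72 (adjusted p = 0.00508). NME7, of the nucleoside diphosphate kinase family, was higher by 0.72 (adjusted p = 0.0132), and LCMT1, which methylates protein phosphatase 2A, by 0.71 (adjusted p = 0.00199). LCMT1 had the largest short-duration difference of the 24, 0.92. TACR2 and EGR1 were the others of the 12, and TACR2 had a short-duration difference of 0.04.

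Larger changes were carried by identifiers without a gene name in the table used. The transcript ENSTGUT00000012679 averaged 9.47 ± 0.22 in the 7-day birds, against 7.64 ± 0.31 in the 3-day birds (SD, n = 6 each). It was higher by 1.83 (SE 0.19, adjusted p = 3.54e-07 by limma), and its interaction was 1.29 (adjusted p = 0.0234). ENSTGUT00000006448 was higher by 1.55 (SE 0.29, adjusted p = 0.000717 by limma), with an interaction of 2.04 (adjusted p = 0.0212). ENSTGUT00000011379 and XM_002190226 were lower, with changes of -2.81 and -2.21 (adjusted p = 0.000336 and 6.36e-05 by limma), and both were also lower in the short-duration comparison, by changes of -2.31 and -1.29.

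Markers of cell types were read beside these changes, and each count below stands against 16.2% of all transcripts called. Of 4 measured astrocyte markers, 1 was called, AQP4, the astrocyte water channel, which was higher by 0.58 (SE 0.12, adjusted p = 0.00169 by limma). AQP4 had 8.38, 8.54 and 8.87 in the 7-day birds, against 7.89, 7.98 and 8.21 in the 3-day birds. The log2 of the summed astrocyte markers lay between 10.28 and 10.54 in the 7-day birds, against 9.94 to 10.19 in the 3-day birds, with no overlap. Among all single transcripts, 6.97% did not overlap either. Summed levels were taken from the deposited values without centring, and the array medians of the 2 groups differed by 0.12. Of 4 markers of ependyma and choroid plexus, 1 was called, AQP1, a water channel, higher by 0.62 (adjusted p = 0.0254 by limma). AQP1 was not called after centring. The summed level of these 4 lay between 7.32 and 8.01 in the 7-day birds, against 6.96 to 7.36 in the 3-day birds. Of 5 neuron markers, 1 was called, NEFM, and the summed level lay between 13.09 and 13.25 in the 7-day birds, against 12.65 to 13.23 in the 3-day birds.

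No marker was called of 2 for oligodendrocytes, 2 for microglia and 1 for endothelium, and their summed levels overlapped between the groups. The part of these marker levels in the changes of other genes was not tested. Of the genes listed for HVC and song nuclei only ESR1 was read here, and it differed between the groups itself. The dissected region was therefore not checked against its markers.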

How the data were processed

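Total RNA of HVC from 39 birds was amplified, biotin-labelled and hybridised to Affymetrix arrays, 1 bird per array, per the labels. The authors deposited log2 values, 1 per transcript and array. That scale follows from their range, and they were used as deposited. Affymetrix Expression Console and affy are named per the submitters' processing notes. Their versions and the methods of summarising and normalising are not given in the sources used here.

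Gene names came from unversioned RefSeq accessions of the zebra finch table (assembly bTaeGut7.mat). A gene was found for 2471 of 26061 identifiers, and 2244 of these had an official symbol, which gave 2236 genes. For a gene with several identifiers the brightest was used. Group means were fitted to all 39 arrays with limma 3.58.1 in R 4.3.3 (lmFit, eBayes), two-sided, with Benjamini-Hochberg adjustment over all transcripts. The fitting was tested on simulated data. Exact permutation used scipy 1.17.1, tables pandas 2.3.3 and figures matplotlib 3.10.9. The precision is limited by the number of arrays.

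Named were up to 12 genes per direction by size of change among those called in both forms of scaling, without overlap between groups and at or above the 25th percentile of level, then up to 4 called genes per list by size, a set of genes of prior interest, and up to 2 unnamed identifiers per direction. MSMO1 and FDFT1, the calls of their list with the smallest changes, were named beside these after their values were seen. So were the called markers AQP4 and AQP1, uncalled list members and calls of the interaction. MSMO1, FDFT1, AQP4 and AQP1 were not among the 74 named results whose calls were counted under the alternatives. One listed gene is not reported here. The genes and lists were chosen with earlier results of these data known.

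Replicate numbers run from 1 to 6 in both groups. Correlations of same-numbered birds' deviations from their group means were between -0.18 and 0.27, so the numbers were not taken to pair the birds. Alternatives, those on the short-duration comparison and the interaction of named genes chosen after seeing the data, covered quantile normalization, array centring, a filter on dim transcripts, eBayes with trend, array weights, fits to fewer groups, title letter, array median, stricter thresholds and leaving out single arrays.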

Additional observations from a re-analysis of the deposited data

Results flagged for a closer look

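Single birds stood far from the other 5 of their group in 7 of 150 groups of values examined, by Dixon's criterion for 6 values, and chance alone flags about 1 in 20 such groups. In the 7-day birds these were all replicate 6, the bird with the highest array median (7.87). It had the highest value of CCNA2 (9.15), EGR1 (10.52) and GALR1 (10.88) and the lowest value of TRUB1 (7.64). Without it, EGR1 was higher by 0.55 (adjusted p = 0.0297 by limma), GALR1 by 0.52 (0.0181) and CCNA2 by 0.40 (0.0551), and TRUB1 had a change of -0.43 (0.0439).

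In the 3-day birds, replicate 2 had the highest value of CDC45 (6.73), and replicate 5 the highest of HSPB1 (7.75) and the lowest of RPS20 (8.60). Each of these 3 genes was called with all birds and without the bird named.

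The change at 7 d against 3 d differed from the difference of the mean of 1 h and 3 h against 8 h, by the interaction in limma, for ESR1 (2.00), CDH12 (0.94), IGF2 (0.65) and EFNB2 (-0.58) and for the unnamed transcripts ENSTGUT00000006448 (2.04) and ENSTGUT00000012679 (1.29). Beside ESR1, the array medians and the title letter moved with the groups. With the letter in the fit the change of ESR1 at 7 d against 3 d had an adjusted p of 0.0669 by limma.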

How the results depend on the processing

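Main counts were 4227 calls for 7 d against 3 d (2831 higher, 1396 lower), 59 for the interaction and 34.3% of transcripts for the short-duration comparison. The cause of each shift below was not tested unless the setting itself removes birds, transcripts or calls. Centring each array gave 1484 higher and 2328 lower, and 25 for the interaction. Array weights gave 8556 (5669 higher, 2887 lower) and 1838. Without the 3-hour array that stood apart there were 6601 (4391 higher, 2210 lower) and 323. The title letter as a term left 966 (591 higher, 375 lower), 7 for the interaction and 1.59% for the short durations. The array median as a covariate left 2441 (1125 higher, 1316 lower), 147 and 12.7%. An adjusted p under 0.01 left 1269 (776 higher, 493 lower), 10 and 17.1%, and a fold change of at least 1.5 left 972 (539 higher, 433 lower) and 8.20% for the short durations. For the interaction, dropping transcripts under the 25th percentile gave 103, the fit to 5 groups 10 and the replicate block 34. The replicate block gave 4538 calls for 7 d against 3 d and changed no call of a named gene for that comparison. Leaving out 1 array of the 7-day or 3-day birds at a time gave 1981 to 5468 calls, 1166 to 3943 higher, and 815 to 1525 lower. Leaving out 1 array of any group compared gave 11 to 323 for the interaction, and of a short-duration group 25.2% to 41.5% for the short durations. The difference in array brightness was 0.0683 with array means (exact permutation p = 0.0952), 0.0170 over the brightest transcripts (0.253), and 0.0790 to 0.140 without single arrays. None of the 74 named results that were called reversed its sign in any alternative run. They were counted because they were called on the same arrays, so the kept signs are no independent check. Of them 61 kept their call under quantile normalization, 58 after centring, 66 in a fit to the 2 groups alone, 36 with the title letter, 45 with the array median and between 50 and 72 without single arrays, fewest without 7-day replicate 6.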

Other observations

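The 14-day birds, also labelled singing, entered the fit and its spread but no contrast. EFNB2 averaged 9.34 ± 0.17 at 14 d (SD, n = 6), against 8.89 at 7 d and 9.13 at 3 d, and CDH12 averaged 8.05 ± 0.11 at 14 d (SD, n = 6), against 8.28 at 7 d and 8.06 at 3 d. No test was made of these differences.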
